A study of Homo sapiens with 42 samples.

Results

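The regions described here are gene-end regions that lost their ATAC-seq interval with FHT-1015, an inhibitor of both SMARCA4 and SMARCA2. ATAC-seq uses a transposase to cut DNA that nucleosomes leave accessible, and an interval is a stretch in which the authors' peak caller found more cuts than in the background. In each line, bases covered by an interval in all 3 DMSO files were joined into segments. A segment was a member when it was at least 100 bp wide, lay on chromosomes 1 to 22 or X, was touched by no interval of the line's 3 FHT-1015 files, and had its centre no more than 1 kb from the start or the far end of a gene that encodes a protein. Overlapping segments of the 7 lines were joined, which turned 2746 segments into 2636 regions. The background is 19139 gene-end regions, and 227815 regions of any place, that an interval covered in all 3 DMSO files of at least 1 line. Of the 19139 gene-end regions, 16531 overlapped none of the 2636. The members were therefore selected on the measured contrast, and the counts of lost segments below are a description with no test.

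Chromatin of 7 human cancer cell lines was profiled in 42 samples, all labelled as wild type. The carcinoma lines were 22RV1, from a prostate adenocarcinoma, HCT116, from a colorectal adenocarcinoma, and DU4475, from an invasive carcinoma of the breast. A375 came from a melanoma, 92-1 from a uveal melanoma, RD from a rhabdomyosarcoma and MV411 from an acute myeloid leukaemia. In each line there were 3 biological replicates with FHT-1015 and 3 with the solvent DMSO, the control, all taken after 4 h; the labels give no dose. The design text of the series names every line but MV411, which was kept because its sample labels have the same form. Each line is 1 established culture of 1 tumour, so the replicates are samples of a line and not of a tumour type. The labels do not say whether replicates came from separate cultures, and p-values measure the spread between these samples.

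SMARCA4 and SMARCA2 are the alternative ATPase subunits of the BAF (SWI/SNF) complexes, which slide and evict nucleosomes. Enhancers are known to need this activity to stay accessible, and many sequence-specific factors, among them the AP-1 dimers of FOS and JUN proteins, recruit or depend on BAF. Promoters within CpG islands, which are rich in the dinucleotide CpG and in sites for SP1, ETS, NRF1 and YY1 factors, are often open without it, whereas CpG-poor promoters tend to belong to tissue-restricted genes.

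The promoter bases of 7 lost regions that covered the start of a gene are printed because they show both kinds of promoter. The sequences are those of RefSeq on GRCh38.p14, given 5′ to 3′ on the strand of the gene, and hold only bases upstream of the start that lie inside the lost region. Capitals mark matches to the motifs searched, other than the general E-box and the CCAAT box, which are too frequent to mark. LYST, on the minus strand at chr1:235883714-235883928, held an AP-1 match (TGANTCA) and a RUNX match (TGTGGT, read on the other strand as ACCACA). MBNL2, on the plus strand at chr13:97141584-97141833, held 2 AP-1 matches.
LYST: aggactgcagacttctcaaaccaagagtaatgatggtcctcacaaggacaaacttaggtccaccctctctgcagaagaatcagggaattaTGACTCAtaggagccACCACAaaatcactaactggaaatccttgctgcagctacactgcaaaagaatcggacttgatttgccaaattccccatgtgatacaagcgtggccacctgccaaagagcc
MBNL2: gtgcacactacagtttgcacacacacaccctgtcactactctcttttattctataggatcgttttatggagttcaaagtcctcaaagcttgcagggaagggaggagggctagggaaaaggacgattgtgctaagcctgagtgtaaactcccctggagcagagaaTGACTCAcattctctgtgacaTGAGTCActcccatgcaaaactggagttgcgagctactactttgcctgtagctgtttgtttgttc

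Of the other 5, 3 had few CpG dinucleotides for their length and 2 many. FCRLA (chr1:161706979-161707228, plus strand) held 1 CpG, a match to the SOX motif ACAATG and 1 to the E-box CAGCTG. Its region joins the segments of 2 lines. The 92-1 segment held the SOX match and ended at 161707088, short of the start. The MV411 segment began at 161707030, past the SOX match, and covered the start. TBX22 (chrX:80014559-80014752, plus strand) held 2 CpG and matches to SOX, to the ETS motif CCGGAAG, to CAGCTG and to the steroid receptor element AGAACA. BDKRB2 (chr14:96204635-96204838, plus strand) held 7 CpG and 2 CAGCTG matches. DYNC1I1 (chr7:95772384-95772553, plus strand) and VWA5B2 (chr3:184229433-184229584, plus strand) held 19 CpG each and the GC box GGGCGG, a binding motif of SP1. A match is a description of the letters and not a measured binding site.
FCRLA: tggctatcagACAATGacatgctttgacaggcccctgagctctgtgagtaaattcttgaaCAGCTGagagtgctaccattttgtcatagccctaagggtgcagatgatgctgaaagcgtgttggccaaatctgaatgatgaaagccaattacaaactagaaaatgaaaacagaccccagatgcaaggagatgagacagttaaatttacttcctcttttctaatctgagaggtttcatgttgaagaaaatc
TBX22: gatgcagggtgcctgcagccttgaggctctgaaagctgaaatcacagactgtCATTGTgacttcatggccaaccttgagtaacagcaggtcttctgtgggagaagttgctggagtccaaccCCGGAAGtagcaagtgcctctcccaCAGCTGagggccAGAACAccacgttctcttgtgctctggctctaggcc
BDKRB2: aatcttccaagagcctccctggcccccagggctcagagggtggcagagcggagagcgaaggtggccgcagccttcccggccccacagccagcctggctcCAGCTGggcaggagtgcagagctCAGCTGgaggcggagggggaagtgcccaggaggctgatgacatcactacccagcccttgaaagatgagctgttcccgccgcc
DYNC1I1: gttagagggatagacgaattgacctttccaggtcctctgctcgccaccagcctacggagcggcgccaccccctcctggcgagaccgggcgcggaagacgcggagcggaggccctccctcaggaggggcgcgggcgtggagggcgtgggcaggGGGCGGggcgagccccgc
VWA5B2: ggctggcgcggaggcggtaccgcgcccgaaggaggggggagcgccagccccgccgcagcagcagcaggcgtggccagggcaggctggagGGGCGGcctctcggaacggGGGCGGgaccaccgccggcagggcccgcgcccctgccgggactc

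The lists held 114291 to 431956 peaks per sample, of which 1412 to 121774 had a −log10 q of at least 5. They hold no read counts, so the sequencing depth is unknown and no counting interval is given. A background pileup, recovered from the deposited fold enrichments and p-values as a stand-in for relative depth, was 0.0342 to 2.79. In 92-1 it was 0.430, 0.123 and 0.0839 in the DMSO samples and 0.299, 0.0346 and 0.0342 in the FHT-1015 samples. The MV411 samples had 0.400 to 0.495 with DMSO and 0.260 to 0.270 with FHT-1015, and the 22RV1 samples 0.532 to 0.702 with DMSO and 0.768 to 1.02 with FHT-1015. The part of depth in the losses was not tested in any line. Peaks with a −log10 q of at least 5 numbered 58095 to 79003 with DMSO and 37389 to 41820 with FHT-1015 in 22RV1. They numbered 105420 to 121774 and 52664 to 53585 in MV411, and 41806 to 48752 and 13760 to 28354 in RD. In DU4475 they were also fewer in every FHT-1015 sample, and in 92-1, A375 and HCT116 the groups overlapped. Of 5 markers per line, DMSO intervals in all 3 files lay at the gene ends of 5 in MV411 (SPI1, FLT3, CD33, MYB and HOXA9) and of 4 in 22RV1, RD, A375 and DU4475. In HCT116 they were found for EPCAM and CDX2 but not VIL1, KLF5 or LGR5, and in 92-1 for MITF only, with SOX10, PMEL, MLANA and TYR lacking one.

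MV411, 22RV1, 92-1 and RD lost the most gene-end segments, and A375, DU4475 and HCT116 few. The loss was 730 of 14208 segments in MV411 (5.14%), 612 of 15940 in 22RV1 (3.84%), 565 of 8825 in 92-1 (6.4%) and 454 of 12212 in RD (3.72%). It was 160 of 13195 in A375 (1.21%), 136 of 11838 in DU4475 (1.15%) and 89 of 10435 in HCT116 (0.853%). In every line gene ends lost a smaller share than the rest of the genome, where 40.0% of the segments went in 92-1, 23.5% in RD, 23.1% in MV411, 22.7% in 22RV1, 12.3% in A375, 9.15% in DU4475 and 7.84% in HCT116. The 92-1 count rested on single samples: it was 691 to 2270 when 1 sample was left out, the highest without FHT-1015 replicate 1, the deepest of the 3 by background. Leaving out a sample loosens the rule, and every count rose. The highest were 1192 in 22RV1 and 451 in HCT116, without DMSO replicate 3 and 1, 1186 in MV411 and 371 in DU4475, each without DMSO replicate 2, and 875 in RD and 418 in A375, without FHT-1015 replicate 3 and 2.

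A far smaller share of segments was lost at the starts of genes than at the far ends. Among the segments nearest a gene's start, the share lost was 4.9% in 92-1, 3.36% in MV411, 2.99% in 22RV1, 2.67% in RD, 0.83% in A375, 0.729% in DU4475 and 0.653% in HCT116. Among segments nearest a far end, where transcription stops, it was 30.1% in 92-1, 18.3% in MV411, 17.7% in RD, 15.2% in 22RV1, 6.72% in A375, 6.17% in DU4475 and 5.95% in HCT116. The order of the 3 places, start below far end below elsewhere, was thus the same in all 7 lines. Kept segments at far ends were also weaker than kept ones at starts in every line. By the lowest of 3 DMSO percentiles of −log10 p, described below, their medians were 61.3 to 86.2 at far ends and 83.6 to 95.1 at starts. The part of strength and width in this order was not tested. Pooled over lines, 1440 members lay at a start (54.6%), 642 at a far end (24.4%) and 554 (21.0%) beside genes whose strand was not given in the table used.

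**Figure D1:**
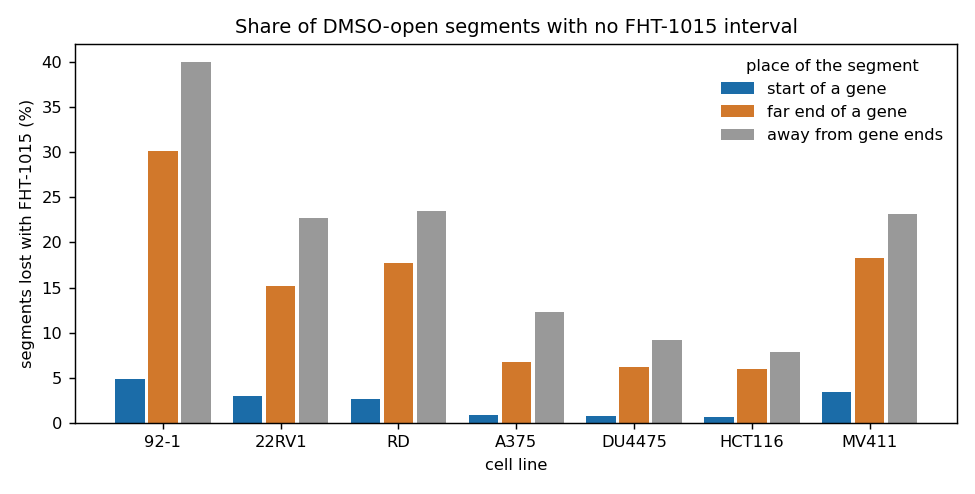
Bars give the percent of segments with an interval in all 3 DMSO samples that had no FHT-1015 interval (y axis) in each cell line (x axis), for segments at the start of a gene, at its far end and away from gene ends. In every line the start bar is the lowest, from 0.653% in HCT116 to 4.9% in 92-1, and the bar away from gene ends the highest.

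Lost segments were narrow, weak and off-centre. The regions were 100 to 1138 bp wide, with a median of 170 bp. Segment widths had a median of 150 to 187 bp in the 7 lines, against 233 to 934 bp for the kept gene-end segments of the same lines. As a measure of strength, each segment took the lowest of its 3 DMSO percentiles of −log10 p, each within its own list. For lost segments its median was 61.6 in 92-1, 56.6 in 22RV1, 53.2 in RD, 38.3 in A375, 35.7 in HCT116, 35.0 in MV411 and 34.6 in DU4475. For kept segments it was 81.4 in MV411, 83.9 in A375 and 89.7 to 94.5 in the other lines. Lost segments at starts had their centre a median of 290.5 to 607 bp from the start over the lines, and kept ones 99 to 156 bp.

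A lost segment did not always leave the gene end bare. At starts, 64.8% of the lost segments of HCT116, 63.7% of 22RV1, 54.7% of MV411, 47.7% of DU4475, 36.5% of A375, 32.7% of RD and 21.3% of 92-1 had another interval within 1 kb of the same start in all 3 FHT-1015 samples. Some of those, such as the ones at RCOR3 in 22RV1 and PCF11 in MV411, lay to the side of the start, but at CD44 in 22RV1 the lost segment covered it. At far ends the same was true of 17.4% in DU4475, 14.3% in HCT116, 11.4% in 22RV1, 9.25% in MV411, 8.42% in RD, 2.73% in 92-1 and 0% in A375. Under a stricter demand on the control, a −log10 q of at least 5 in each of the 3 DMSO files, 464 segments remained. MV411 held 258 of them, 22RV1 149, RD 26, 92-1 19, DU4475 10, and A375 and HCT116 1 each. Starts made up 224 and far ends 152.

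Few regions were shared between lines. Of the 2636 regions, 2534 were lost in 1 line, 95 in 2 and 7 in 3, and none in more. The largest overlap of 2 lines was 19 regions of 92-1 and RD, 3.36% of the regions of 92-1 and 4.19% of those of RD. MV411 and 22RV1 shared 14, which is 1.92% and 2.29% of each, and DU4475 and MV411 shared 0. These shares stand beside base losses of 0.853% to 6.4% of all gene-end segments per line. Of the members, 43.9% had an interval in all 3 DMSO files of 1 line only and so could not be lost in another. The regions lost in 3 lines lay at LYST, BDKRB2, HOXC8, TTC7A, TAF10, PLPPR5 and TMCC3.

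LYST, the regulator of lysosome size and trafficking that is mutated in Chediak-Higashi syndrome, lost its start in 92-1, RD and MV411. The DMSO samples of 92-1 had fold enrichments over background of 9.78, 6.78 and 6.25 there, those of RD 3.85, 3.76 and 3.88, and those of MV411 4.91, 3.16 and 6.38. The lowest DMSO percentile was 92.6 in 92-1 and 60.1 in RD, but 6.3 in MV411, where the segment was weak. None of the 9 FHT-1015 samples of these lines had an interval, nor did any have one elsewhere within 1 kb of the start. A375 kept the region in 3 of 3 samples with either treatment, and 22RV1 had it in 2 DMSO samples and 0 FHT-1015 samples. This is the promoter whose printed bases hold the AP-1 and RUNX matches.

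BDKRB2, which encodes the bradykinin receptor of the constitutive type, lost its start in 92-1, A375 and DU4475. Fold enrichments with DMSO were 13.7, 12.7 and 4.46 in 92-1, 6.14, 4.46 and 3.74 in A375, and 2.95, 3.22 and 2.47 in DU4475. The region was open in all 3 DMSO samples of the other 4 lines as well. With FHT-1015 it was called in 3 of 3 samples of 22RV1, RD and HCT116 and in 1 of 3 of MV411. Lines with the same open region in control cells thus differed in these calls after treatment. An interval elsewhere within 1 kb of the start remained in 1 of 3 FHT-1015 samples of 92-1 and in 2 of 3 of A375 and DU4475. The DU4475 segment was weak, with a lowest DMSO percentile of 28.2.

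At HOXC8, a homeobox gene of trunk patterning, a region 14 bp from a gene end of unknown side was lost in 92-1, RD and A375 and was called in 1 of the 24 other samples. It was weak, with DMSO fold enrichments of 6.53, 4.13 and 2.61 in 92-1, 3.56, 3.53 and 2.18 in RD and 2.86, 3.51 and 2.59 in A375. The lowest DMSO percentile was 1.31 in 92-1, 3.84 in RD and 27.6 in A375. In A375 2 of 3 FHT-1015 samples had an interval within 1 kb of the same gene end, and in 92-1 and RD none had. The far-end region of PLPPR5, a membrane protein of neurons, was lost in the same 3 lines and called in no sample of the other 4. The far end of TMCC3, an endoplasmic reticulum membrane protein, was lost in 92-1, A375 and MV411, and its DMSO folds were 10.0, 6.14 and 5.71 in the samples of MV411, 4.46, 2.67 and 2.77 in those of 92-1 and 4.13, 2.53 and 2.65 in those of A375.

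The far-end region of TTC7A, a scaffold of the complex that brings a phosphatidylinositol kinase to the plasma membrane, was lost in 92-1, RD and HCT116 and kept in A375 in 3 of 3 samples. Its folds with DMSO were 10.2, 7.75 and 3.68 in 92-1 and 4.64, 5.45 and 5.81 in HCT116. Near the far end of TAF10, a subunit of the general transcription factor TFIID, 92-1, RD and A375 lost a region that HCT116 and MV411 kept in 3 of 3 samples and 22RV1 in 2 of 3. FKBP5, a co-chaperone of steroid receptors and a target of theirs, lost a region at its start in 92-1 and RD, with DMSO folds of 4.66, 3.71 and 3.09 in RD. The same bases were called in 3 of 3 FHT-1015 samples of 22RV1, DU4475 and MV411. These calls concern those bases only, and other segments at the ends of FKBP5 can differ. The far-end region of FAM24A, lost in 22RV1 and MV411, was called in 10 of the 15 DMSO samples and 1 of the 15 FHT-1015 samples of the other 5 lines.

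**Figure D2:**
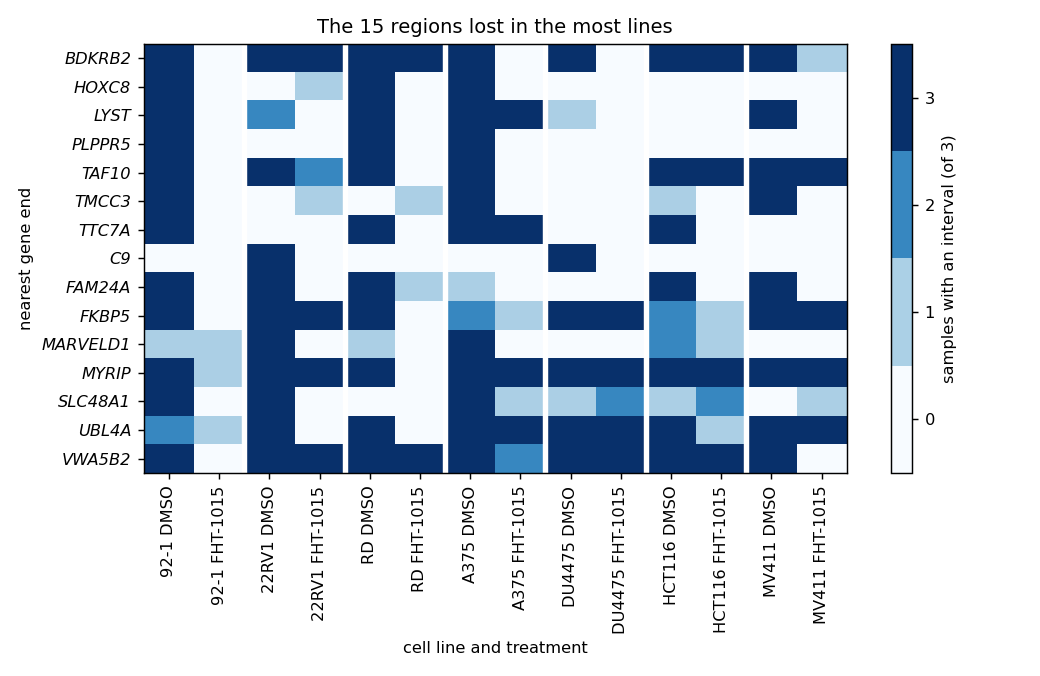
Shading gives the number of samples, of 3, with an interval over each of the 15 regions lost in the most lines (y axis, by nearest gene), in each line and treatment (x axis). PLPPR5 is empty outside its 3 losing lines, while MYRIP and BDKRB2 are dark in nearly every DMSO column and differ between lines with FHT-1015.

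The strongest losses of each line, those with the highest DMSO percentile in their weakest replicate, differed in how widely they were shared. In 22RV1, MV411 and A375 each was open in the DMSO samples of at most 3 other lines, and in HCT116 of at least 3. In 22RV1 they lay at KCNJ9, a subunit of G-protein-gated potassium channels, at TBX22, a T-box factor of the palate, at RCOR3, a CoREST corepressor, and at DLEC1, a protein of motile cilia. Fold enrichments with DMSO were 10.2, 16.8 and 15.1 at KCNJ9, 16.1, 21.7 and 17.1 at TBX22, 5.46, 6.83 and 6.15 at RCOR3, and 14.3, 15.8 and 13.1 at DLEC1. The DLEC1 region was called in none of the 36 samples of other lines. At TBX22 the lost region covered the start and no FHT-1015 sample had an interval within 1 kb, whereas all 3 had one beside the lost flank of RCOR3.

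In MV411 they lay at the start of ANGPTL5, an angiopoietin-like protein, at the uncharacterised LOC124905441, at the start of PCF11, a subunit of a pre-mRNA cleavage factor, and at the far end of B3GAT2, a glucuronyltransferase. DMSO samples had folds of 13.2, 15.7 and 14.6 at ANGPTL5, 22.0, 15.9 and 17.4 at LOC124905441, 6.8, 6.63 and 7.49 at PCF11, and 17.6, 15.9 and 18.4 at B3GAT2. The 3 values of each region lay close together. All 3 FHT-1015 samples had an interval within 1 kb of the same start for PCF11, and none had for ANGPTL5 or B3GAT2. At the far end of FOXA1, a pioneer factor of prostate and breast that is not a myeloid gene, MV411 lost a region with folds of 13.8, 11.5 and 14.2 that no sample of another line had.

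The 92-1 regions lay at FCRLA, an Fc receptor-like protein of B cells, at DYNC1I1, an intermediate chain of dynein, at MSC, a repressor of the basic helix-loop-helix family, and at ZNF496, a zinc finger protein. Folds with DMSO were 23.8, 10.2 and 13.2 at FCRLA, 16.6, 10.2 and 8.82 at DYNC1I1, 12.7, 7.69 and 9.76 at MSC, and 8.25, 7.27 and 6.16 at ZNF496. Replicate 1, the deepest, was the highest at each. All 3 FHT-1015 samples had an interval within 1 kb of the same gene end at MSC, a median of 38 bp from the lost segment. At ZNF496 2 of 3 had one, and at FCRLA and DYNC1I1 1 of 3. The DYNC1I1 start was open in the DMSO samples of all 6 other lines, and 17 of their 18 FHT-1015 samples kept it. FCRLA was also lost in MV411, with folds of 8.7, 5.46 and 11.5, and was called in 3 of 3 FHT-1015 samples of RD and A375.

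In RD they lay at the far ends of XPC, the damage sensor of nucleotide excision repair, and PADI1, a peptidylarginine deiminase, and at the starts of MYRIP, which ties Rab27 vesicles to myosin, and PTGS1, a cyclooxygenase. Folds were 6.27, 5.92 and 5.83 at XPC, 8.74, 7.05 and 6.22 at PADI1, 6.16, 7.17 and 8.75 at MYRIP, and 6.43, 6.14 and 4.8 at PTGS1. The XPC region is the widest member, at 1138 bp. MYRIP, lost in 92-1 too, was called in all 15 DMSO and all 15 FHT-1015 samples of the other 5 lines. PTGS1 was called in 16 of 18 DMSO and 11 of 18 FHT-1015 samples of the other lines.

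By the lowest DMSO percentile, A375, DU4475 and HCT116 had weaker strongest members, at most 79.6, 84.7 and 86.5. Those of the other lines had at least 87.3. Fold enrichments overlapped those of RD. In A375 the far end of MTRF1, a mitochondrial release factor, had folds of 9.05, 6.74 and 4.98, and PEX19, NAT8 and IPPK followed, with lowest folds of 4.31, 4.82 and 3.61. In DU4475 MBNL2, a muscleblind splicing regulator, had 7.05, 5.22 and 6.07, beside CHCHD2, SKP1 and PRR18. The MBNL2 start was called in 18 of 18 DMSO samples and 12 of 18 FHT-1015 samples of the other lines, with 3 of 3 FHT-1015 samples in 22RV1, A375 and HCT116 and 1 of 3 in 92-1, RD and MV411. In HCT116 RDH5, a retinol dehydrogenase, had 6.49, 6.64 and 6.95, beside CLASRP, OXTR and FKBP3, and was called in 14 of 18 FHT-1015 samples elsewhere. All 3 FHT-1015 samples of the line had an interval within 1 kb of the same gene end for PEX19, IPPK, CHCHD2, PRR18, CLASRP and FKBP3. For NAT8 1 of 3 had one, and for MTRF1, MBNL2, SKP1, RDH5 and OXTR none had.

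**Figure D3:**
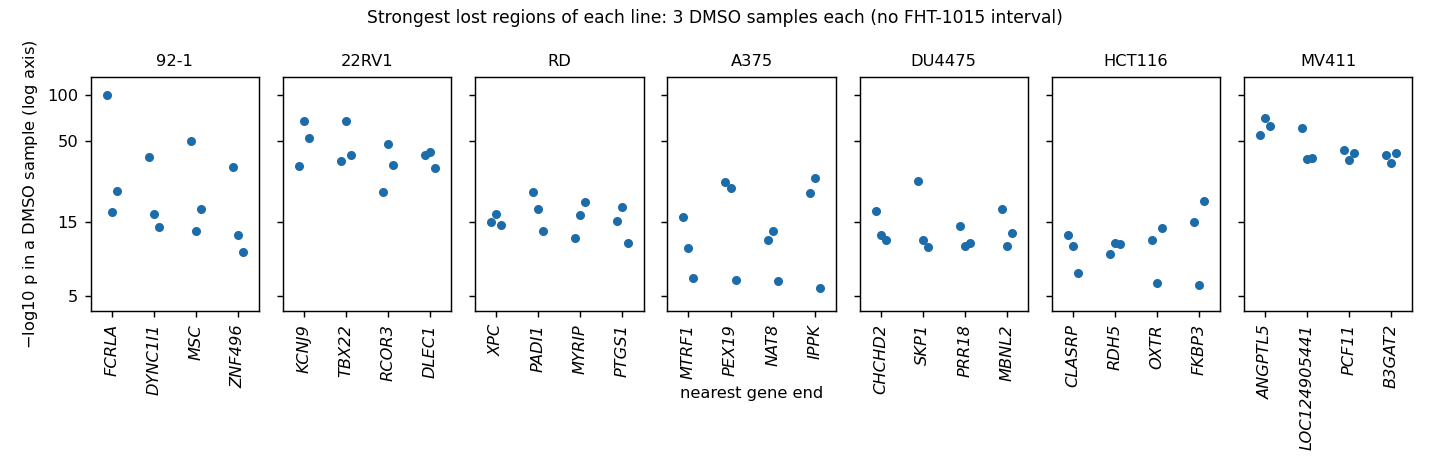
Points give the −log10 p (y axis, log scale) of each of the 3 DMSO samples at the 4 strongest lost regions of each line (x axis, nearest gene). No FHT-1015 sample of the line had an interval there, so none is drawn. The MV411 points of a region lie closer together than those of 92-1 and A375. In HCT116 the points of RDH5 lie close together and those of FKBP3 are spread.

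Members were open in fewer lines than other gene-end regions. All 7 lines had an interval in all 3 DMSO files at 3.38% of the lost regions and 35.8% of the 16531 lost in no line, with medians of 2 and 5 lines. In the lines that did not lose them, 44.5% of the lost regions were open in no other line and 25.5% in at least 3. Far-end members were more often private than starts: 71.8% of them were open in no other line, against 32.0% of the members at starts. Where another line did have the region in all 3 DMSO files (3718 pairs of region and line), all 3 FHT-1015 files of that line had an interval in 2568, or 69.1%.

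Whether such regions also lose intervals in samples that did not select them was tested line by line. For each line, gene-end segments lost in at least 1 of the other 6 lines were taken, and the percent with an interval was found in each of its own 6 samples. It was lower with FHT-1015 in 7 of 7 lines and fell by 6.64 percentage points on average. In a two-sided permutation test within lines, p was 1e-05, the smallest that 100000 draws can give. The groups did not overlap in 92-1, 22RV1, RD and MV411.

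In RD the percent was 43.4, 44.5 and 42.8 with DMSO and 33.0, 28.8 and 35.2 with FHT-1015, a difference of -11.2 points. In 92-1 it was 34.1, 22.1 and 18.0 with DMSO and 17.0, 8.7 and 8.36 with FHT-1015, a difference of -13.4. In MV411 it was 31.7, 31.2 and 32.9 with DMSO and 24.7, 24.4 and 24.1 with FHT-1015, a difference of -7.54. The treated samples were below every control sample in these lines, and also in 22RV1. There the values were 42.4, 42.4 and 38.6 against 32.8, 34.6 and 34.2, a difference of -7.27. The mean difference was -2.79 points in DU4475, -2.69 in A375 and -1.58 in HCT116, with overlapping groups. For a single line the exact permutation test of 3 against 3 cannot go below p = 0.1, and the lowest p adjusted by Benjamini-Hochberg over 7 lines was 0.175. No difference between 2 lines in this effect passed the threshold (exact permutation tests, lowest adjusted p = 0.556 over 21 pairs).

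Gene-end segments lost in no other line were covered less with FHT-1015 as well. Their coverage fell by 3.65 points on average (the same permutation test, p = 0.0116) and was lower in 5 of 7 lines. In 92-1 they fell from a mean of 65.6% ± 6.34 to 50.5% ± 13.5 and in RD from 72.6% ± 0.722 to 66.1% ± 3.14 (SD, n = 3). Within a sample, the difference between the 2 kinds of segment changed by -2.99 points (the same permutation test, p = 0.00092), with a fall in 6 of 7 lines. These 2 kinds were not matched for strength or width. By median, lost segments were weaker and narrower than kept ones in every line, as described above. The part of strength and width in this change was not tested. Over only those segments that an interval touched in at least 1 of the line's 6 samples, the 2 differences were -11.7 and -7.38 (permutation p = 1e-05 for both), lower in 7 of 7 lines. Dropping segments that no sample covered raises each percent and widens the change of each kind by construction. Lost segments were covered less than kept ones in every sample, so these sizes cannot be compared with those over all segments. Over all segments, the change in the difference between the 2 kinds was -6.0 in 22RV1, -5.42 in MV411 and -4.69 in RD. It was -1.88 in HCT116 and -1.56 in DU4475, and groups did not overlap in any of these lines. In A375 it was -3.06 and in 92-1 1.72, with overlapping groups. Its mean over lines was -1.01 without FHT-1015 replicate 1 of 92-1 (permutation p = 0.159). With coverage only by intervals of −log10 q of at least 5 the mean was -0.174 (permutation p = 0.938). Taken separately, an alternative added after the data were seen, segments at starts gave -4.51 (permutation p = 0.00025) and those at far ends -0.334 (permutation p = 0.675).

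**Figure D4:**
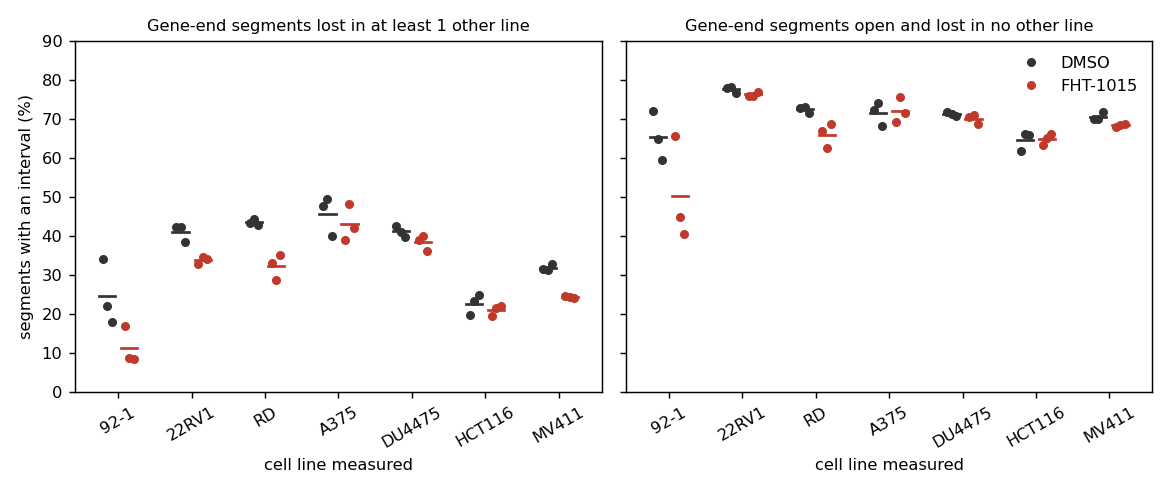
Points give, for each sample of a line (x axis), the percent of gene-end segments with an interval (y axis); the left panel holds segments lost in at least 1 other line and the right panel segments open and lost in no other line. Short lines are means of 3 samples; in the left panel the FHT-1015 points of 92-1, 22RV1, RD and MV411 lie below all DMSO points of the same line, the lowest at 8.36% in 92-1.

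Lost promoters were poorer in CpG than the other open promoters. RefSeq promoter windows of 300 bases, 250 before and 50 after the outermost start of a gene, were found for 13791 genes, of which 342 were overlapped by a lost segment by at least 100 bp and 9672 by an open segment lost in no line. The ratio of observed to expected CpG had a median of 0.526 in the lost and 0.847 in the other open promoters, and 0.767 in all 13791. It was under 0.5 in 49.1% of the lost, 9.88% of the other open and 28.9% of all promoters. In 92-1 and RD the medians for lost promoters were 0.765 and 0.66, and they were 0.386 in 22RV1, 0.335 in A375, 0.273 in MV411, 0.248 in HCT116 (9 promoters) and 0.23 in DU4475 (12 promoters). Promoters open and not lost in the same line had medians of 0.865 to 0.875. Since the promoters were selected on the contrast, these values and the motif shares are a description with no test.

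The motif of AP-1, TGANTCA, was found on either strand in 52 of the 342 lost promoters (15.2%), in 4.24% of the open promoters lost in no line and in 5.78% of all. Among promoters with a CpG ratio under 0.5, it was in 22.6% of the lost, 12.1% of the other open and 11.5% of all. By line it was in 10 of 24 lost promoters in A375 (41.7%), 4 of 9 in HCT116, 13 of 65 in MV411 (20.0%), 13 of 73 in RD (17.8%), 2 of 12 in DU4475, and 9.09% in both 92-1 and 22RV1. Open promoters kept by the same lines had it in 3.36% to 3.91%.

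RUNX (TGTGGT) was in 17.3% of the lost, 8.93% of the other open and 10.9% of all promoters, and among CpG-poor promoters in 25.6%, 17.2% and 17.1%. By line it was in 5 of 12 lost promoters in DU4475 (41.7%), 24.6% in MV411, 22.2% in HCT116, 20.8% in A375, 15.6% in 22RV1, 15.1% in RD and 11.1% in 92-1, and in 7.96% to 8.88% of those the same lines kept. The motif of the TATA-binding protein, TATAAA, was in 14.0%, 5.58% and 10.0% of the same sets, and among CpG-poor promoters in 23.8%, 11.9% and 21.3%. The motif AGATAA of the GATA factors was in 9.06%, 4.55% and 7.69%. Among CpG-poor promoters alone, the last was in 14.3% of the lost, 11.7% of the other open and 16.4% of all.

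Motifs of CpG-island promoters went the other way. ETS (CCGGAAG) was in 4.09% of the lost, 19.6% of the other open and 14.6% of all promoters, and at a CpG ratio of at least 0.5 in 7.47%, 21.2% and 19.4%. The GC box (GGGCGG) was in 52.0%, 72.3% and 58.5%, but at a CpG ratio of at least 0.5 in 80.5%, 77.1% and 75.2%. The YY1 motif AAGATGG was in 2.34%, 7.42% and 6.69%, and the NRF1 element GCGCATG in 2.05%, 7.89% and 6.1%. All 19 motifs were searched on both strands, and the E-box CANNTG contains CAGCTG and CACGTG.

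**Figure D5:**
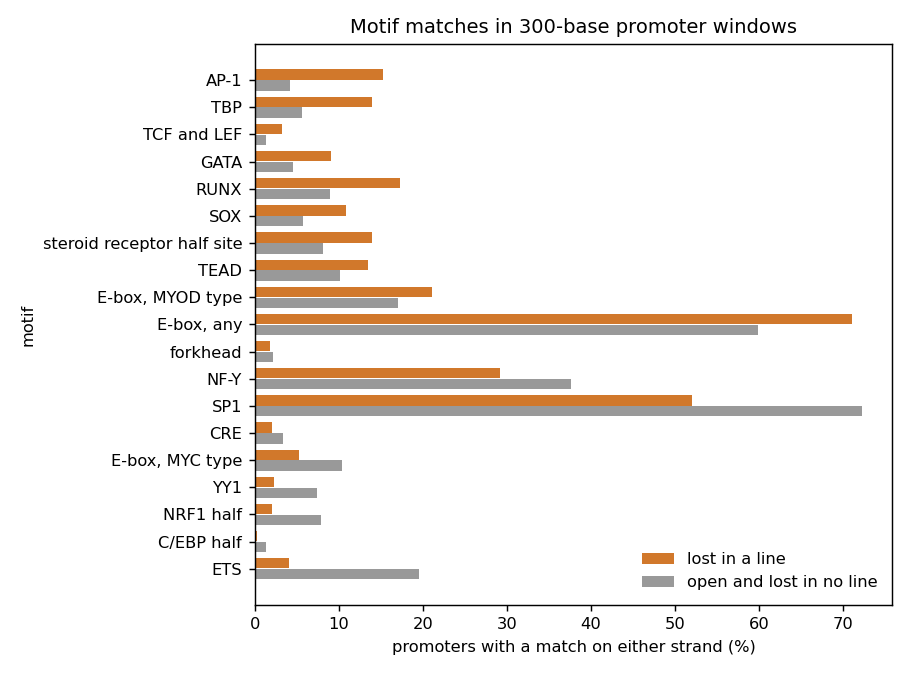
Bars give the percent of promoter windows with a match to each motif (x axis; y axis, motif) among 342 lost promoters and 9672 open promoters lost in no line, ordered by the ratio of the 2. AP-1 stands at 15.2% against 4.24% at the top and ETS at 4.09% against 19.6% at the bottom.

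Named gene lists were compared with the share of all genes that lost a gene-end segment: 6.3% of 11361 genes with one in MV411, 7.2% of 7747 in 92-1, 4.91% of 12235 in 22RV1, 4.0% of 10986 in RD, 1.45% of 10727 in A375, 1.24% of 10768 in DU4475 and 0.961% of 9159 in HCT116. KLK2, which encodes a kallikrein of prostate fluid, lost a region near its start in 22RV1. This region had DMSO folds of 5.88, 7.65 and 9.54, was called in no sample of another line and left no FHT-1015 interval within 1 kb.

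Interferon response genes lost one in 3 of 14 in 22RV1: IFI27, at its far end with folds of 9.54, 11.8 and 10.1, IFIT2 and OAS1. In 92-1 it was 2 of 6, IFIT3 and IRF7, in MV411 1 of 17, OAS3, and 0 of 14 in RD, 0 of 14 in A375, 0 of 12 in DU4475 and 0 of 7 in HCT116. Of the integrins and matrix receptors, 22RV1 lost segments at 2 of 11, CD44 and ITGB5, RD at 1 of 13, DU4475 at 1 of 9, HCT116 at 1 of 8, and 92-1, A375 and MV411 at none of 8, 11 and 9. The CD44 segment covered the start, had folds of 6.38, 4.25 and 7.08, and lay within 1 kb of an interval in all 3 FHT-1015 samples. MHC class II genes had 1 of 4 in MV411, the flank of CD74, the invariant chain.

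Among the lineage lists given here, MV411 lost a gene-end segment at 0 of 15 myeloid regulators, RD at 1 of 12 muscle genes, MYOG, DU4475 at 1 of 9 breast lineage genes, SOX9, A375 and 92-1 at 0 of 5 melanocyte genes and HCT116 at 0 of 3 intestinal genes. The MYOG segment, 413 bp from the start of that myogenic factor, had DMSO folds of 1.98, 4.25 and 3.77, and 2 of 3 FHT-1015 samples kept an interval nearer by.

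Over any of the 7 lines, 15.9% of the 15472 genes with a gene-end segment lost one. The count was 0 of 15 for immediate early genes, 1 of 33 for cytosolic ribosomal proteins (RPL32, at its far end), 1 of 18 for cell cycle genes (MCM6), 1 of 17 for epithelial genes (CLDN7), 1 of 14 for the AP-1 family itself (JUND, in 92-1), 1 of 13 for YAP and TEAD targets (YAP1, in MV411), 1 of 11 for melanocyte genes (OCA2, in MV411) and 1 of 9 for intestinal genes (CDX1). It was 2 of 15 for MAPK feedback genes (ETV4 and PHLDA1), 2 of 14 for WNT targets (APCDD1 and RNF43), 2 of 13 for muscle genes, 2 of 13 for mesenchymal genes (SNAI1 and TWIST2) and 3 of 24 for subunits of BAF itself (SMARCE1, DPF3 and DPF1). It was 3 of 15 for myeloid regulators (HOXA9, MEIS1 and GFI1, none of them lost in MV411), 3 of 11 for breast lineage genes, 5 of 15 for integrins and matrix receptors and 6 of 19 for interferon response genes. The lists are short and were given no test.

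The limits of the rule fell among ordinary segments. The width limit of 100 bp was just met by segments at C12orf76 in 92-1 and B3GALT2 in 22RV1, and missed at 99 bp by PCNP and GLRB in 92-1. The distance limit of 1000 bp was just met at NID2 in 22RV1 and OPLAH in RD, and missed by DNAJC5B in 92-1 at 1000.5 bp and MS4A3 in 22RV1 at 1001 bp. The lowest DMSO percentiles were 61.6 and 54.7 for the segments just inside the width limit and 72.4 and 61.6 for those just outside.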

How the data were processed

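Peak lists of 42 ATAC-seq samples were used, each called on 1 sample. The submitters' processing notes name Bowtie2, Picard, MACS2, HOMER, limma and hg38, with no versions or roles, and no source used here gives the thresholds. The fold enrichment of a peak is the ratio to background that the authors deposited, and its p-value and q-value are the deposited −log10 values; they were used only to describe or rank peaks within a list. The peak names of 92-1, 22RV1, HCT116 and MV411 carry the word small, and no source used here gives its meaning, so contrasts were made within lines.

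Intervals were compared in Python 3.11.15 with numpy 2.4.6, pandas 2.3.3 and scipy 1.17.1, and the rule was tested on simulated lists. Gene ends were those of 19970 protein-coding genes in RefSeq GRCh38.p14, of which 15812 had a strand. Coordinates are those of the files, from 1. Fold = (P + 1)/(L + 1) and Poisson p were solved for a pileup P and background L, with a tolerance of 0.01 on −log10 p in 1000 peaks a sample. Coverage tests permuted treatment within lines, with 100000 draws and a threshold of 0.05. Named regions were the 15 lost in the most lines, the 4 strongest of each line, members at listed genes (all those lost in 2 lines, and up to 3 others a list) and those nearest the limits of the rule; further list members are named where a count is small, and 1 list is not reported here. The members, lists and motifs were chosen with earlier results of these data known. Alternatives were stricter −log10 q, widths, distances and overlaps, left-out samples and lines, and a replicate block. No genome sequence was used, so regions other than promoters have no sequence here.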

Additional observations from a re-analysis of the deposited data

How the results depend on the processing

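Most counts moved with the definition. With DMSO intervals of −log10 q of at least 5 there were 460 regions, with 19 segments in 92-1, 149 in 22RV1, 26 in RD, 1 in A375, 10 in DU4475, 1 in HCT116 and 258 in MV411. With that limit in all files there were 2612 regions, against 2636 by the main rule. Segments then numbered 209 in 92-1, 847 in 22RV1, 707 in RD, 45 in A375, 66 in DU4475, 46 in HCT116 and 867 in MV411. With widths of at least 200 bp there were 838 regions, and 135 segments in 92-1, 166 in 22RV1, 210 in RD, 53 in A375, 33 in DU4475, 9 in HCT116 and 255 in MV411. With no FHT-1015 interval within 250 bp there were 1606 regions. Segments then numbered 341, 325, 271, 88, 53, 50 and 537 in 92-1, 22RV1, RD, A375, DU4475, HCT116 and MV411. With centres within 500 bp of a gene end there were 1466 regions, and 371, 317, 282, 91, 65, 50 and 340 segments, with MV411 last.

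Leaving out 1 sample gave 2681 to 4303 regions, and 691 to 2270 segments in 92-1, 915 to 1192 in 22RV1, 594 to 875 in RD, 210 to 418 in A375, 191 to 371 in DU4475, 139 to 451 in HCT116 and 1002 to 1186 in MV411; fewer samples loosen the rule by construction. The coverage difference was -7.15 to -5.42 points, and that against kept segments -3.49 to -1.01, the last without FHT-1015 replicate 1 of 92-1. The latter also missed the threshold with coverage at −log10 q of at least 5 (-0.174) and at far ends (-0.334, added after the data were seen); the cause was not tested. Every other alternative run, without 92-1 or MV411 among them, kept both coverage results past the threshold. With the replicate block the values were -6.64 (permutation p = 2e-05) and -2.99 (permutation p = 0.00631). Correlations of samples with the same number were -0.0304 to 0.0778, none of 21 above 0.1, and 11 of 21 correlated best with their own number, so the numbers were not taken to pair samples. With only segments that had an interval in at least 1 sample of the line, the differences were -11.7 and -7.38, a filter that widens changes by construction. The lists give no read depth, so a missing interval does not show closed chromatin.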
